A study of Mus musculus with 9 samples.

Results

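Glypicans and syndecans are the cell-surface proteoglycans that carry most heparan sulfate of a cell. They were followed here in 3 mouse stromal cell lines through 18 probe sets of 8 genes, the glypican genes Gpc1, Gpc3, Gpc4 and Gpc6 and the syndecan genes Sdc1, Sdc2, Sdc3 and Sdc4. A probe set is a group of short oligonucleotides on an array that together read a transcript. Every probe set whose platform annotation gave exactly 1 of these symbols was taken, out of 36701 probe sets with a target and 15964 named genes. The array type MG-U74A held 9 of the 18 probe sets, MG-U74B held 6 and MG-U74C held 3.

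Both families consist of a core protein to which long heparan sulfate chains are attached in the Golgi. Glypicans are held in the outer leaflet of the membrane by a glycolipid anchor, whereas syndecans span the membrane and bind signalling and cytoskeletal proteins through a short cytoplasmic tail. The sulfated chains hold growth factors, Wnt and hedgehog proteins and chemokines near the cell surface, and heparan sulfate of marrow stroma is known to bind cytokines that act on hematopoietic cells.

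The study set stromal lines that support blood formation beside one that does not. AGM-s3-A9 and OP9 are the supportive lines and AGM-s3-A7 is the line without this capacity. Both AGM lines stem from the aorta-gonad-mesonephros region of the embryo, where hematopoietic stem cells arise, and OP9 stems from the skull cap of newborn mice. RNA of each line was hybridised to 1 array of each of the 3 types, so that 9 arrays were made. A line is thus 1 array of each type, and no treatment or genotype is named in the labels. OP9 differs from both AGM lines in tissue and age of origin, and from AGM-s3-A7 also in the named capacity.

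Values are normalized intensities in arbitrary units, comparable between lines for 1 probe set but not between probe sets. With 1 array per line and type there is no replicate error, and no test was possible. A difference was counted from 2-fold upwards, that is from 1 on the log2 scale, and set beside the spread of the log2 ratio between probe sets of 1 gene on the same array type. Over 1160 pairs of probe sets this robust SD was 0.30 between AGM-s3-A9 and AGM-s3-A7. It was 0.31 between OP9 and AGM-s3-A7 (1134 pairs) and 0.32 between AGM-s3-A9 and OP9 (1128 pairs). It does not cover differences between cultures of 1 line. On MG-U74A the detection level was 49.0, on MG-U74B it was 52.8 and on MG-U74C 61.6, and where 1 line of a pair did not exceed it the fold is a lower bound.

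The labelled cell type was checked on marker genes. Of 6 stromal markers, 5 were above the detection level in AGM-s3-A9, 4 in OP9 and 5 in AGM-s3-A7, with summed intensities of 13723, 8628 and 14048. Vim, an intermediate filament gene of mesenchymal cells, was below the detection level in every line on its probe set, and Thy1, a surface glycoprotein gene, was at 416 in AGM-s3-A9, 4.61 in OP9 and 206 in AGM-s3-A7. None of 6 hematopoietic and none of 5 endothelial markers was above it in any line, with summed intensities of 72.3 to 95.9 and of 22.3 to 48.1. Of 4 epithelial markers, Epcam and Cdh1 were above it in each line, with list sums of 205 in AGM-s3-A9, 212 in OP9 and 250.5 in AGM-s3-A7.

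Of the 18 probe sets, 11 were above the detection level in at least 1 line, and they covered 7 of the 8 genes. The probe set of Gpc3 was below it in all lines. Relative to AGM-s3-A7, Gpc6 and Sdc3 were 2-fold or more higher in AGM-s3-A9 and Sdc2 was 2-fold or more lower, and the other 8 probe sets lay under 2-fold. Among all probe sets above the detection level in this comparison, 2.88% were higher and 2.18% lower by that much. In OP9 against AGM-s3-A7, Gpc6, Sdc3 and Gpc1 were higher on 1 probe set each and Sdc2 was lower, against 4.77% and 5.52% of all probe sets. The AGM-s3-A7 arrays are shared by both comparisons, so a high or low reading there enters both. In RNA of whole cultures, fewer expressing cells and less transcript per cell cannot be told apart. In AGM-s3-A9 against OP9, 0 of the 11 probe sets reached 2-fold in either direction, where 5.96% of all probe sets were higher and 4.63% lower.

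**Figure D1:**
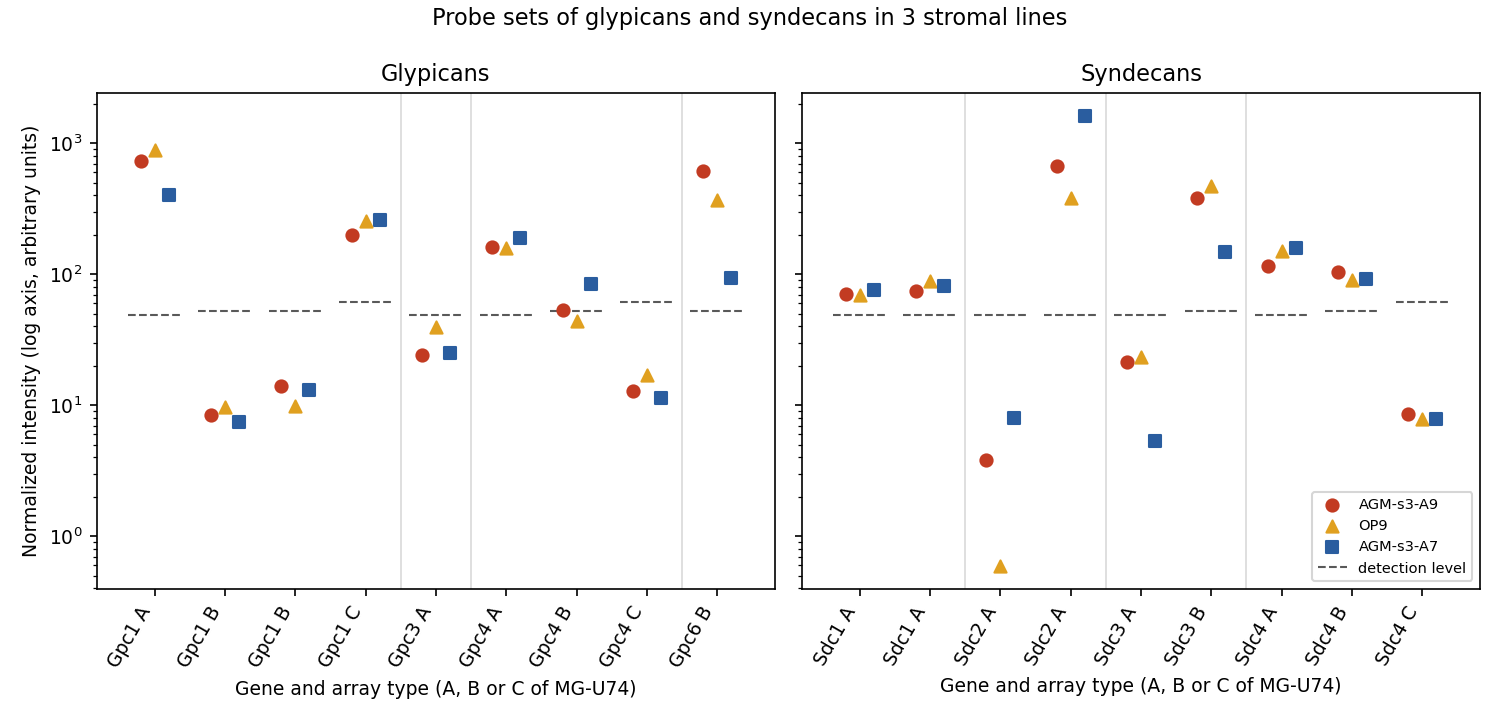
Normalized intensity (vertical log axis, arbitrary units) of the 18 probe sets in AGM-s3-A9 (circles), OP9 (triangles) and AGM-s3-A7 (squares), with 1 array per point and the detection level of the array type as a dashed line. Gpc6 and Sdc3 were higher and Sdc2 was lower in AGM-s3-A9 and OP9 than in AGM-s3-A7, and the probe set of Gpc3 lay below the dashed line in all 3 lines.

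Among the glypicans, Gpc6 showed the widest separation of the lines. Gpc6 is a glypican of mesenchymal and skeletal tissue, mutated in the human short-limb disorder omodysplasia, and it acts in hedgehog signalling. Its only probe set (on MG-U74B) read 619 in AGM-s3-A9, 367 in OP9 and 94.1 in AGM-s3-A7. AGM-s3-A7 was the low line, although it was still above the detection level of 52.8. In AGM-s3-A9 it was 6.58-fold above AGM-s3-A7, a log2 ratio of 2.72, rank 3 from the highest among 4698 probe sets of that array type. In OP9 it was 3.91-fold higher than in AGM-s3-A7 (log2 ratio 1.97, rank 22 of 4841). The supportive lines differed from each other by 1.68-fold (log2 ratio 0.75), more than the spread between probe sets but under 2-fold. No other probe set of Gpc6 was available to check these ratios. In gene order on chromosome 14, Gpc6 lies next to the glypican gene Gpc5, for which no probe set was annotated. Tgds, 2 genes away, had log2 ratios of 0.77 in AGM-s3-A9 and 0.92 in OP9. Slitrk5, as far away on the other side, had a log2 ratio of at least 1.52 in OP9. Neither AGM line exceeded the detection level for Slitrk5. The median log2 ratio of chromosome 14 was 0.19 over 303 genes in AGM-s3-A9 and 0.12 over 300 genes in OP9, against 0.01 and 0.04 over all genes.

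Gpc1 gave results that depended on the probe set. The gene encodes a widely expressed glypican that binds fibroblast growth factors. Its brightest probe set (on MG-U74A) read 728 in AGM-s3-A9, 892 in OP9 and 400.5 in AGM-s3-A7. There AGM-s3-A7 was again the low line. AGM-s3-A9 was 1.82-fold above AGM-s3-A7 (log2 ratio 0.86, rank 323 from the highest of 6616) and OP9 2.23-fold (log2 ratio 1.15, rank 240 of 6718). With the deposited intensities the log2 ratio in AGM-s3-A9 was 1.60 and with hybridization control scaling 1.30, past 2-fold in both cases. Relative to the median of all probe sets of MG-U74A, which these scalings also shifted, it was 0.95 and 0.94. Its probe set on MG-U74C read 198 in AGM-s3-A9, 255 in OP9 and 260.4 in AGM-s3-A7. On it neither supportive line was above AGM-s3-A7, with log2 ratios of -0.39 in AGM-s3-A9 and -0.03 in OP9. The remaining probe sets of Gpc1, both on MG-U74B, lay at 8.48 and 14.0 in AGM-s3-A9, 9.76 and 9.88 in OP9 and 7.47 and 13.0 in AGM-s3-A7, below the detection level. For comparison, among 168 genes at least 2-fold apart between OP9 and AGM-s3-A7 and with a detected probe set on another array type, that second probe set pointed in the same direction for 89.3% and reached 2-fold for 35.1%.

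Gpc4 and Gpc3 lie close to each other on the X chromosome. Gpc4 encodes a glypican that modulates Wnt and fibroblast growth factor signalling. Its probe set on MG-U74A read 160.2 in AGM-s3-A9, 159 in OP9 and 188 in AGM-s3-A7, and the lines thus lay within 0.24 of each other on the log2 scale, less than the spread between probe sets. Its probe set on MG-U74B read 53.7 in AGM-s3-A9, 44.2 in OP9 and 84.9 in AGM-s3-A7, near the detection level of 52.8. On that probe set Gpc4 in AGM-s3-A9 was 1.58-fold below AGM-s3-A7, and OP9 was lower by at least 1.61-fold. A probe set of Gpc4 on MG-U74C read 11.3 to 17.0, below the detection level. Gpc3, the glypican mutated in the human overgrowth disorder Simpson-Golabi-Behmel syndrome, read 24.2 in AGM-s3-A9, 39.6 in OP9 and 25.2 in AGM-s3-A7, and no fold is given because all 3 values were below the detection level.

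**Figure D2:**
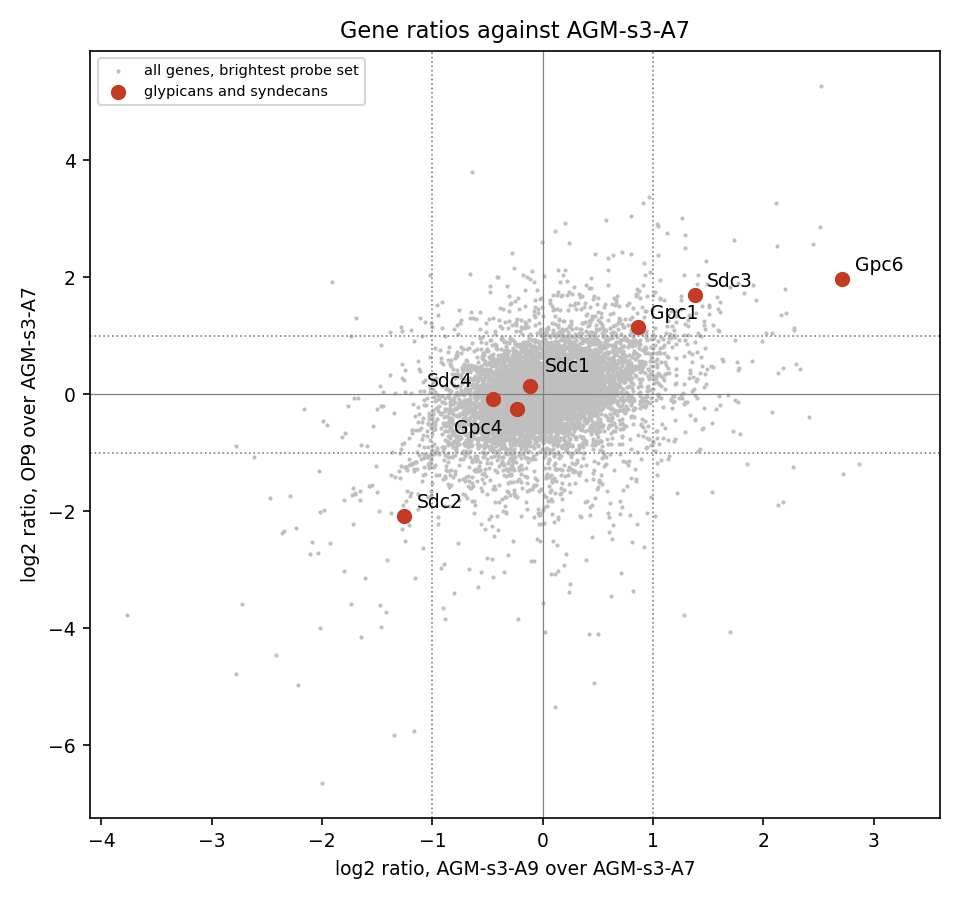
Log2 ratio of AGM-s3-A9 over AGM-s3-A7 (horizontal axis) and of OP9 over AGM-s3-A7 (vertical axis), with 2-fold as dotted lines. Grey points are genes above the detection level in at least 1 line of each comparison, on their brightest probe set. Red points are the 7 detected glypican and syndecan genes. Gpc6 (2.72 and 1.97) and Sdc3 (1.38 and 1.69) lay past 2-fold on both axes and Sdc2 (-1.26 and -2.09) at the opposite end, and both axes share the AGM-s3-A7 arrays, which by itself tilts the cloud.

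Among the syndecans, Sdc3 and Sdc2 differed between the lines in opposite directions. Sdc3, known as N-syndecan from its abundance in the nervous system, is a large syndecan that also occurs in muscle and skeletal precursors. Its detected probe set, on MG-U74B, read 383 in AGM-s3-A9, 476 in OP9 and 147 in AGM-s3-A7. The supportive lines were high and AGM-s3-A7 was low. Sdc3 was 2.60-fold higher in AGM-s3-A9 (log2 ratio 1.38, rank 45 from the highest of 4698) and 3.23-fold higher in OP9 (log2 ratio 1.69, rank 46 of 4841). On the deposited intensities the log2 ratio of AGM-s3-A9 was 0.998, just under 2-fold. The log2 ratio of AGM-s3-A9 to OP9 was -0.31, within the spread between probe sets. The other probe set of Sdc3, on MG-U74A, read 21.4 in AGM-s3-A9, 23.4 in OP9 and 5.32 in AGM-s3-A7, all below the detection level, so it gives no ratio. On chromosome 4, where Sdc3 lies, the median log2 ratio was 0.20 in AGM-s3-A9 (493 genes) and 0.12 in OP9 (505 genes) over AGM-s3-A7, and the adjacent gene Laptm5 had log2 ratios of -0.55 and -0.57.

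Sdc2 was lower in both supportive lines. Sdc2, also called fibroglycan, is the syndecan typical of fibroblasts and other mesenchymal cells and takes part in matrix assembly. Its detected probe set, on MG-U74A, read 675 in AGM-s3-A9, 380.3 in OP9 and 1614 in AGM-s3-A7. The supportive lines were low and AGM-s3-A7 was high. Sdc2 was 2.39-fold lower in AGM-s3-A9 (log2 ratio -1.26, rank 67 from the lowest of 6616) and 4.24-fold lower in OP9 (log2 ratio -2.09, rank 88 of 6718). AGM-s3-A9 was 1.77-fold above OP9, a log2 ratio of 0.83 that exceeded the spread between probe sets, and this ratio was 1.46 on the deposited intensities and 1.03 with hybridization control scaling, or 0.94 and 0.92 relative to the array median. The ratio of AGM-s3-A9 to AGM-s3-A7 reached 2-fold under 3 of 5 scalings of the arrays, and its log2 value was -0.92 after scaling to the spiked hybridization controls and -0.62 on the intensities as deposited. Under these scalings the median of all probe sets of MG-U74A was itself shifted by 0.36 and 0.65, and relative to that median Sdc2 stood at -1.29 and -1.28. The other probe set of Sdc2, whose suffix warns of cross-hybridisation, read 3.81 in AGM-s3-A9, 0.592 in OP9 and 8.07 in AGM-s3-A7, below the detection level.

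Sdc2 lies on chromosome 15, whose genes as a whole were lower in the supportive lines. The median log2 ratio of chromosome 15 was -0.49 over 372 genes in OP9 against AGM-s3-A7, where 3 genes were 2-fold or more higher and 70 lower. In AGM-s3-A9 against AGM-s3-A7 it was -0.17 over 376 genes, with 10 higher and 20 lower. In that comparison the medians of chromosome 12 (-0.20), chromosome 2 (0.24), chromosome 4 (0.20) and chromosome 14 (0.19) lay further from 0. The immediate neighbour of Sdc2, the semaphorin gene Sema5a, had log2 ratios of -1.19 in AGM-s3-A9 and -1.68 in OP9. Cpq on the other side, a secreted peptidase gene, had 0.03 and -1.75. Beside these values, the log2 ratios of Sdc2 were -1.26 in AGM-s3-A9 and -2.09 in OP9. The part of the chromosome in the level of Sdc2 was not tested.

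**Figure D3:**
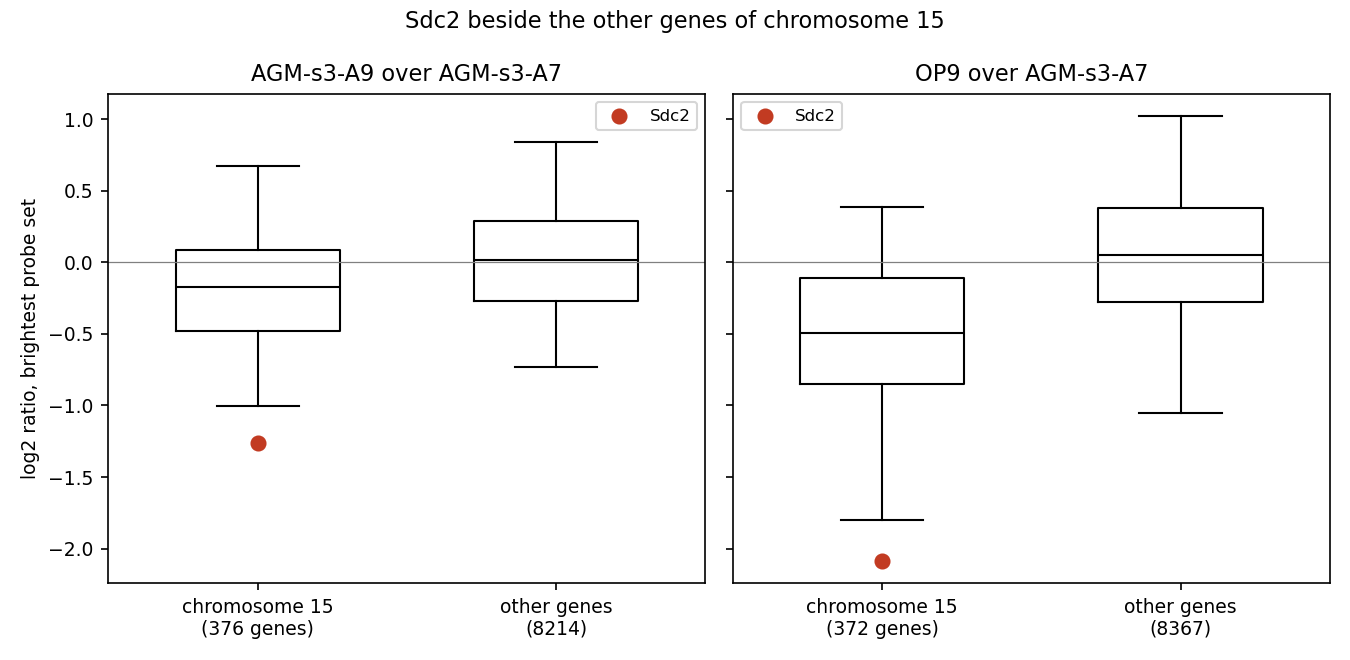
Log2 ratios (vertical axis) of detected genes on chromosome 15 and of the other detected genes, on their brightest probe set. Boxes show median and quartiles, whiskers run from the percentile 5 to the percentile 95, and Sdc2 is the red point. Sdc2 (-1.26 in AGM-s3-A9 and -2.09 in OP9 over AGM-s3-A7) lay below the lower whisker of its chromosome in both panels, while the chromosome's median was -0.17 and -0.49.

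Sdc1 and Sdc4 did not reach 2-fold between any of the 3 lines. Sdc1, a syndecan of epithelia and plasma cells, read 74.8 in AGM-s3-A9, 89.3 in OP9 and 81.1 in AGM-s3-A7 on its brighter probe set. On the other it read 70.7 in AGM-s3-A9, 69.6 in OP9 and 76.4 in AGM-s3-A7, so the highest line differed. Both sets lay on MG-U74A, a little above the detection level of 49.0, and no pair of lines differed by more than 0.26 on the log2 scale. Sdc4, a syndecan of focal adhesions that activates protein kinase C alpha, read 116 in AGM-s3-A9, 150.1 in OP9 and 159 in AGM-s3-A7 on MG-U74A. On MG-U74B it read 103 in AGM-s3-A9, 89.8 in OP9 and 91.8 in AGM-s3-A7. The log2 ratio of Sdc4 in AGM-s3-A9 against AGM-s3-A7 was -0.45 on MG-U74A and 0.17 on MG-U74B, so its sign differed between the array types. On MG-U74A its log2 ratio in AGM-s3-A9 against OP9 was -0.37, and both MG-U74A ratios exceeded the spread between probe sets. A probe set of Sdc4 on MG-U74C read 7.88 to 8.54, below the detection level. For Sdc1, Sdc4 and Gpc4 the sign of the small ratio in AGM-s3-A9 against AGM-s3-A7 also depended on the scaling, since on the deposited intensities it was 0.57, 0.31 and 0.49 in place of -0.12, -0.45 and -0.23. Relative to the array median it was -0.08, -0.35 and -0.16 there.

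**Figure D4:**
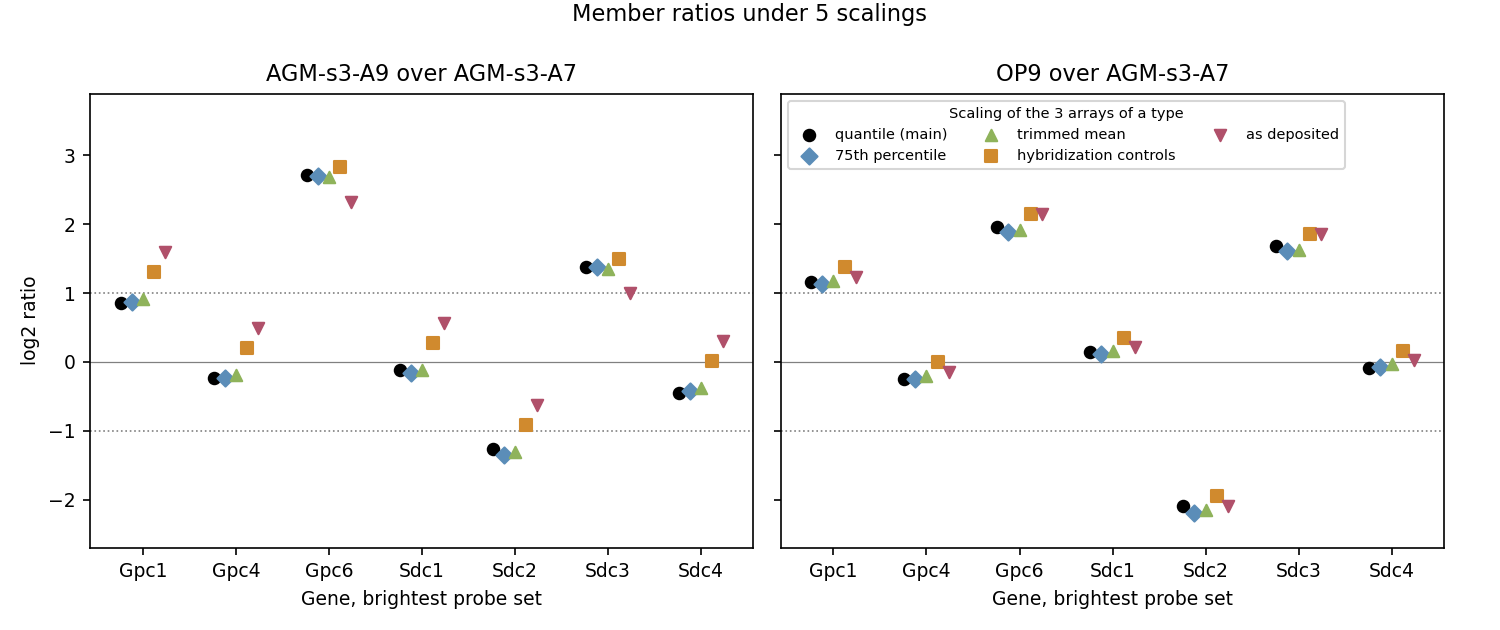
Log2 ratio (vertical axis) of the 7 detected genes on their brightest probe set, for AGM-s3-A9 over AGM-s3-A7 (left) and OP9 over AGM-s3-A7 (right), under 5 scalings of the arrays, with 2-fold as dotted lines. Gpc6 kept a log2 ratio of 2.33 to 2.83 in AGM-s3-A9 and 1.89 to 2.15 in OP9, whereas Sdc2 in AGM-s3-A9 crossed the dotted line at -0.62 and -0.92.

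Promoter windows of 300 bases, from 250 bases before to 50 after the annotated start, were given for Gpc3, Gpc4, Sdc1, Sdc3 and Sdc4 in RefSeq's annotation of GRCm38.p6. Windows of Gpc1, Gpc6 and Sdc2 were not among those given. Shown are the windows of Sdc3, higher in both supportive lines, and of Sdc4, which did not reach 2-fold between any lines. That of Sdc3 is chr4:130792287-130792586 on the plus strand and that of Sdc4 is chr2:164443139-164443438 on the minus strand, each printed in the direction of transcription with GC boxes (GGGCGG, or CCGCCC on the other strand) in capitals.
Sdc3: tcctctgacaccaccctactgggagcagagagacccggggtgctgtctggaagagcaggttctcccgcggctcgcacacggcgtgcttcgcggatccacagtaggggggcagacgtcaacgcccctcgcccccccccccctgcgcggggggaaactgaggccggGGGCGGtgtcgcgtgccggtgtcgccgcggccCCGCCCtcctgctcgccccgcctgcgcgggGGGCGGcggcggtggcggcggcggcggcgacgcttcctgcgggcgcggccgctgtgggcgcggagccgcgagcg
Sdc4: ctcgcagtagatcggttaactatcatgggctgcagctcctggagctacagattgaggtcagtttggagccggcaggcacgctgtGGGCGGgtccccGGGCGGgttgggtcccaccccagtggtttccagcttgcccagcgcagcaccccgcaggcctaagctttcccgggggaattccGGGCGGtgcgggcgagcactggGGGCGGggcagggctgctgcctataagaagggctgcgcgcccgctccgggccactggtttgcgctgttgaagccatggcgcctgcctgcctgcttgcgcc
The Sdc3 window held 3 GC boxes and had 77.7% G and C, and the Sdc4 window held 4 GC boxes and had 67.7%. A GC box on either strand was present in 35.7% of 32851 windows of this length. The letters TATAA, found in 24.9% of windows on either strand, occurred once on either strand in Sdc4 and did not occur in Sdc3, and CCAAT, found in 37.4%, occurred in neither. The motifs were searched on both strands, and TATAA holds no G or C and so cannot overlap a GC box. A match is a string of letters and not a measured binding site.

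Genes with the most similar pair of log2 ratios against AGM-s3-A7 on the same array type were listed for the 4 members that reached 2-fold. The distance is Euclidean over the ratios of AGM-s3-A9 and of OP9, so it rests on only 3 arrays. For Gpc6 the nearest were Map2 at 0.83, Spry1 at 0.91 and Ripk3, and for Sdc3 they were Nfib at 0.11, Fam122b and Btbd3. For Gpc1 on its MG-U74A probe set they were Surf2 at 0.02, Pithd1 at 0.07 and Tsc22d1 at 0.07. For Sdc2 they were Crabp2, Lama5 and Sptlc2, the last at 0.39. Crabp2 and Lama5 were below the detection level in OP9, and Ripk3, Fam122b and Btbd3 were below it in AGM-s3-A7. Their ratios are bounds, so no distance is given for them and their place in the order depends on that level.

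The genes that build, edit and release heparan sulfate were set beside the core proteins, as 9 lists of 79 genes of which 68 had a probe set. On the brightest probe set of each gene, 47 were above the detection level in AGM-s3-A9 or AGM-s3-A7. Of these, Mmp9 was 2-fold or more above AGM-s3-A7 and Glce 2-fold or more below it in AGM-s3-A9, against 3.08% and 2.28% of all genes. In OP9 against AGM-s3-A7, 0 of 49 were higher and 7 were lower, namely Ext2, Glce, Sulf1, Ids, Mmp9, Lrp1 and Prkca, against 5.14% and 5.98% of all genes. In AGM-s3-A9 against OP9, 6 of 51 were higher and 1 was lower, against 6.58% and 5.06%. The median log2 ratio of the listed genes was 0.05 in AGM-s3-A9 against AGM-s3-A7, where all genes had 0.01. It was -0.16 in OP9 against AGM-s3-A7, beside 0.04 for all genes, and 0.22 in AGM-s3-A9 against OP9, beside -0.02.

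**Figure D5:**
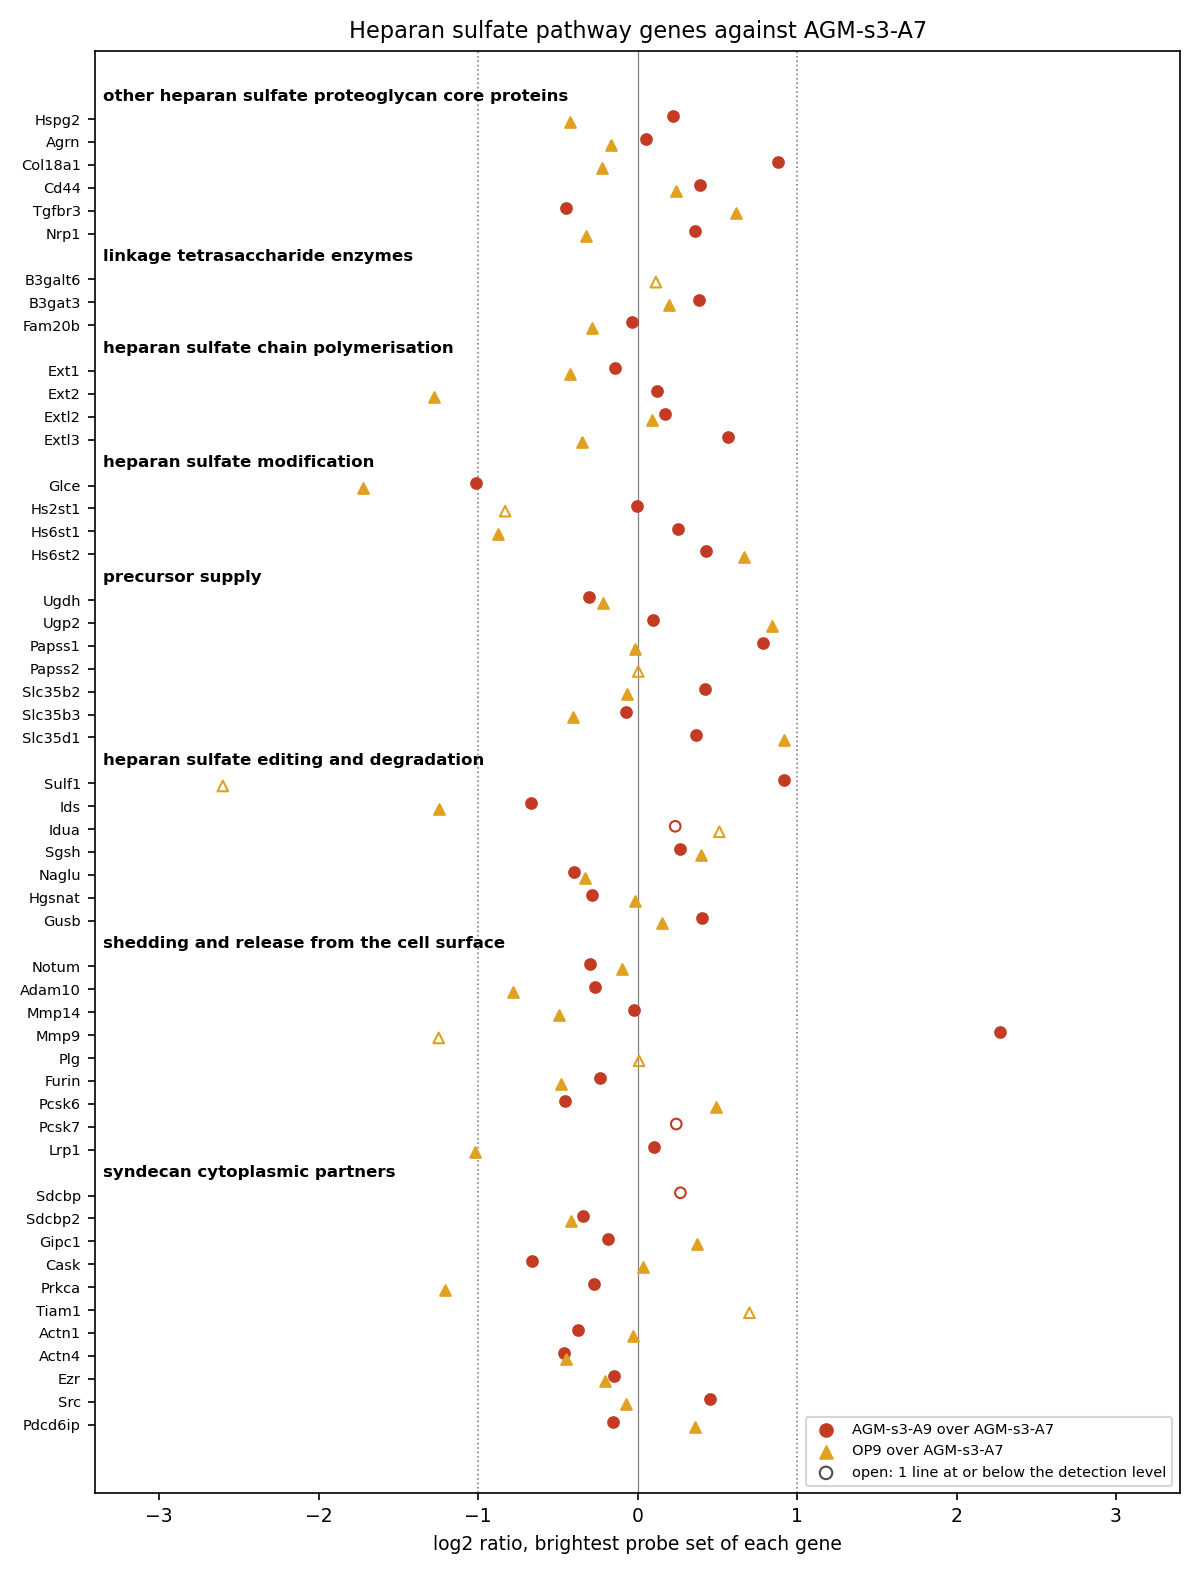
Log2 ratios over AGM-s3-A7 (horizontal axis) of the detected genes of the heparan sulfate lists, for AGM-s3-A9 (circles) and OP9 (triangles), 1 row per gene, with open symbols where 1 line of the pair was at or below the detection level and 2-fold as dotted lines. In AGM-s3-A9, Mmp9 (2.27) was the gene past 2-fold above AGM-s3-A7, and Sulf1 (-2.60) and Glce (-1.72) were the lowest of the 7 genes past 2-fold below it in OP9.

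Some transcripts for chain synthesis were detected in all 3 lines, among them Ext1 and Ext2, while Extl1 and B4galt7 were below the detection level in each. The polymerase of heparan sulfate is a complex of the products of Ext1 and Ext2. Ext1 read 329 in AGM-s3-A9, 270.3 in OP9 and 362 in AGM-s3-A7, within 1.34-fold. Ext2 read 553 in AGM-s3-A9, 209.7 in OP9 and 508 in AGM-s3-A7 on the 1 detected of its 5 probe sets. OP9 was the low line, 2.42-fold below AGM-s3-A7, and AGM-s3-A9 was 2.64-fold above OP9. Of the 4 polymerisation genes detected, Ext2 was the one that reached 2-fold. Of the linkage enzymes, which build the sugar stub on which a chain starts, 2 to 3 of 4 were above the detection level in a comparison and 0 reached 2-fold. Of the 8 genes that supply sugar nucleotides and sulfate donors, 6 to 7 were above it and 0 reached 2-fold.

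Among the enzymes that modify the chains, 4 of the 10 with a probe set were above the detection level. Glce, the epimerase that turns glucuronic into iduronic acid, read 108 in AGM-s3-A9, 66.2 in OP9 and 218 in AGM-s3-A7. Both supportive lines were lower, by 2.02-fold in AGM-s3-A9 and 3.30-fold in OP9. The value in AGM-s3-A9 was at the threshold, and its log2 ratio of -1.01 became -0.96 with trimmed mean scaling, -0.57 with hybridization control scaling and -0.28 on the deposited intensities. With the floor at the 75th percentile of MG-U74A, which lies above both supportive lines, the log2 ratio of Glce was -0.35 in AGM-s3-A9 and in OP9, as a bound. Hs6st1, a 6-O-sulfotransferase gene, read 122 in AGM-s3-A9, 55.8 in OP9 and 102 in AGM-s3-A7, which placed AGM-s3-A9 2.18-fold above OP9. Its log2 ratio of 1.12 was 0.52 on the deposited intensities and 0.62 with the floor at the 75th percentile, both under 2-fold. Hs2st1, the 2-O-sulfotransferase gene, read 87.1 in AGM-s3-A9, 35.2 in OP9 and 87.1 in AGM-s3-A7, and OP9 was thus below the detection level. The 4 genes of 3-O-sulfotransferases with a probe set, Hs3st1, Hs3st2, Hs3st3a1 and Hs3st3b1, were below it in all lines.

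Of the genes of editing and breakdown, 7 of the 9 with a probe set were above the detection level. Sulf1 separated OP9 from both AGM lines. Sulf1 encodes an extracellular sulfatase that removes 6-O-sulfate groups from finished chains and so alters which growth factors they bind. Its brightest probe set read 606 in AGM-s3-A9, 24.9 in OP9 and 320.5 in AGM-s3-A7. OP9 was below the detection level, at least 6.07-fold below AGM-s3-A7, and AGM-s3-A9 was 1.89-fold above AGM-s3-A7 and at least 11.5-fold above OP9. A second probe set of Sulf1 on the same array type read 332 in AGM-s3-A9, 14.8 in OP9 and 181 in AGM-s3-A7, in the same order. Its relative Sulf2 was below the detection level in every line, as was Hpse, the heparanase gene. Ids, a lysosomal sulfatase gene of heparan sulfate breakdown, read 323 in AGM-s3-A9, 216 in OP9 and 513 in AGM-s3-A7, 2.37-fold lower in OP9. Another probe set of Ids, on MG-U74A, read 47.3 in AGM-s3-A9, 59.1 in OP9 and 56.5 in AGM-s3-A7, near the detection level of 49.0. With AGM-s3-A7 so close to that level, this probe set could not show a 2.37-fold lower value in OP9.

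Of the genes of shedding and release, 8 to 9 of 13 were above the detection level in a comparison. Mmp9, a gelatinase that can cleave syndecans near the membrane, read 562 in AGM-s3-A9, 16.6 in OP9 and 116 in AGM-s3-A7. AGM-s3-A9 was the high line, 4.83-fold above AGM-s3-A7 and at least 11.5-fold above OP9, and OP9 was at least 2.37-fold below AGM-s3-A7, a bound that was -0.99 on the log2 scale with the deposited intensities. Lrp1, an endocytic receptor gene, read 2025 in AGM-s3-A9, 929 in OP9 and 1886 in AGM-s3-A7, with OP9 2.03-fold below AGM-s3-A7 and AGM-s3-A9 2.18-fold above OP9. With hybridization control scaling the log2 ratio of OP9 to AGM-s3-A7 was -0.92, under 2-fold. Notum, whose product was known as a glypican-releasing enzyme before its action on Wnt lipids was described, read 80.9 in AGM-s3-A9, 93.1 in OP9 and 99.4 in AGM-s3-A7.

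Among the partners of syndecan tails, Prkca reached 2-fold in 1 comparison. Prkca encodes protein kinase C alpha, the kinase activated by syndecan-4, and read 143 in AGM-s3-A9, 75.2 in OP9 and 173 in AGM-s3-A7, 2.31-fold lower in OP9. The log2 ratio of -1.21 was -0.98 on the deposited intensities and -0.97 with hybridization control scaling, just under 2-fold. Its probe set on MG-U74A read 103 in AGM-s3-A9, 88.7 in OP9 and 179 in AGM-s3-A7, with OP9 again lowest. None of the other partner genes reached 2-fold in any of the 3 comparisons.

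Other proteoglycans that carry heparan sulfate were compared as the last group, in which 6 of 7 genes were above the detection level. Tgfbr3, which encodes the co-receptor betaglycan, read 1068 in AGM-s3-A9, 2245 in OP9 and 1460.5 in AGM-s3-A7, and AGM-s3-A9 was 2.10-fold below OP9. Its 4 probe sets all placed AGM-s3-A9 below OP9, at log2 ratios of -0.41 to -1.07. The brightest was under 2-fold with 3 other scalings, with log2 ratios of -0.82 to -0.95. Col18a1, the gene of a basement membrane collagen with heparan sulfate chains, read 373 in AGM-s3-A9, 173 in OP9 and 202 in AGM-s3-A7, 2.16-fold higher in AGM-s3-A9 than in OP9. All 4 detected probe sets placed AGM-s3-A9 above AGM-s3-A7, by 1.84-fold on the brightest and by different amounts on the others. They read 184 in AGM-s3-A9, 40.9 in OP9 and 11.5 in AGM-s3-A7 on 1 set, 159 in AGM-s3-A9, 54.4 in OP9 and 45.2 in AGM-s3-A7 on another, both past 2-fold, and 67.6 in AGM-s3-A9, 29.9 in OP9 and 30.1 in AGM-s3-A7 on the last, under 2-fold against the detection level. The basement membrane genes Hspg2 and Agrn, for perlecan and agrin, did not reach 2-fold between any lines. Srgn, for the secretory granule proteoglycan of blood cells, was below the detection level in all lines, as was the glypican gene Gpc2.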

How the data were processed

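RNA of 3 lines was read on 9 arrays, 1 per line and array type, so the number of arrays limits the precision. The authors deposited a linear intensity for each probe set of each array. How these intensities were scanned, summarised and scaled is not given in the sources used here. Per the labels' protocols, RNA was column-purified and biotin-labelled.

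On MG-U74A the 3 arrays had means, trimmed by 2% at each end, up to 61.1% apart (MG-U74B 49.8%, MG-U74C 49.7%), so log2 intensities were quantile normalized within each type. The detection level was the higher of the median and the 95th percentile of 34 control probe sets without a target, and values were raised to it before ratios were formed. Of 36701 probe sets, 29131 had 1 symbol, 724 several and 6846 none, and genes were represented by the probe set with the highest mean. Alternatives were 4 other scalings, other floors, a 1.5-fold threshold and other choices of probe sets. The calculation was tested on simulated data. Python 3.11.15, numpy 2.4.6 and pandas 2.3.3 were used.

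All members were named on every probe set. Genes of the pathway lists were named where their brightest probe set reached 2-fold, up to 4 per list and comparison, with a few others given for contrast after their values were seen, and for each member past 2-fold the 3 nearest genes of its array type were named. The members and lists were chosen with earlier results of these data known. Intensities of a single array cover no difference between cultures.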

Additional observations from a re-analysis of the deposited data

How the results depend on the processing

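No paired analysis was possible because each line has 1 array per type and no replicates. Of 188 log2 ratios of glypican and syndecan genes recomputed under an alternative, 160 moved by less than the spread between probe sets. The sign changed in 17, and 16 of these were ratios under 2-fold (of Gpc1, Gpc4, Sdc1 and Sdc4) on the deposited intensities, with hybridization control scaling or on the second brightest probe set. The other was Gpc1 in OP9 against AGM-s3-A7, at -0.030 on its second brightest probe set. Of 54 counts of member probe sets, 45 were unchanged or within 1.5 times. On the intensities as deposited and with hybridization control scaling, AGM-s3-A9 was higher than OP9 on 1 probe set (0 as reported) and lower than AGM-s3-A7 on 0 (1 as reported). At 1.5-fold these counts were 2 and 2, and OP9 was lower than AGM-s3-A7 on 2 (1 as reported). With MG-U74A alone, which holds no probe set of Gpc6 and no detected one of Sdc3, AGM-s3-A9 was higher than AGM-s3-A7 on 0 (2 as reported) and OP9 on 1 (3 as reported).

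Scalings and floors for the listed pathway genes were chosen after seeing the data, and 23 of 36 counts stayed within 1.5 times. On the deposited intensities AGM-s3-A9 was higher than AGM-s3-A7 for 8 (1 as reported), and in AGM-s3-A9 against OP9 14 were higher (6 as reported) and 2 lower (1 as reported). With hybridization control scaling AGM-s3-A9 was higher than AGM-s3-A7 for 4, and OP9 for 1, Ugp2 (0 as reported). The count for which AGM-s3-A9 was lower than AGM-s3-A7 became 0 with trimmed mean scaling, hybridization control scaling and the higher floor, and that for which it was lower than OP9 became 0 with 75th percentile, trimmed mean and hybridization control scaling. With the floor at the median, AGM-s3-A9 was higher than AGM-s3-A7 for 2 and lower than OP9 for 2. The cause of these shifts was not tested, apart from the medians of whole arrays, which moved by 0.65 on MG-U74A in AGM-s3-A9 against AGM-s3-A7 without normalization. Signal over background limits the 7 member probe sets below the detection level, for which no difference can be read.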

Other observations

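The glypican gene Gpc2 had 1 probe set close to the detection level of its array type. It read 60.5 in AGM-s3-A9, 7.54 in OP9 and 21.9 in AGM-s3-A7, against a level of 61.6. The other probe set of Gpc2, on MG-U74B, read 0.567 in AGM-s3-A9, 0.274 in OP9 and 0.361 in AGM-s3-A7, below the detection level. The suffix of both probe sets warns of cross-hybridisation. With the floor at the median of the array type, Gpc2 in AGM-s3-A9 counted as 2-fold or more above AGM-s3-A7 and in OP9 as below it.

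Among genes at least 2-fold apart and measured on another array type, the second probe set pointed the same way for 92% of 75 genes in AGM-s3-A9 against AGM-s3-A7 and for 87.6% of 170 genes in AGM-s3-A9 against OP9, while 25.3% and 35.9% reached 2-fold there.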
